A study of Mus musculus with 2 samples.

Results

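The miR-183, miR-96 and miR-182 cluster was followed through its 3 guide-arm miRNAs, miR-183-5p, miR-96-5p and miR-182-5p. They were found in the array table by the accessions that the miRBase registry of mature miRNAs gives them, MIMAT0000212, MIMAT0000541 and MIMAT0000211. These are 3 of the table's 739 rows, and all 3 had a value on both arrays. One array held RNA from CD4+ T cells of the intestinal lamina propria, the connective layer under the gut epithelium, and the other held RNA from CD4+ T cells of the spleen. Both came from 10-week-old female C57BL/6 mice heterozygous for Il10 (IL-10 +/-), the gene for an anti-inflammatory cytokine, so neither array is from wild-type animals. Lamina propria cells were released with collagenase, a step the labels mention for that tissue only, and the T cells of both tissues were isolated with MACS, a magnetic cell sorting system. Tissue and dissociation therefore cannot be told apart, and the number of mice behind an array is not stated in the labels. A single array per tissue allows neither a replicate error nor a test, so each value below is n = 1.

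MicroRNAs pair with messenger RNAs mainly through the seed, bases 2 to 8 from their 5′ end, and lower the output of those messengers. In helper T cells the cluster is known to be induced by interleukin 2 signalling and in Th17 cells, the interleukin 17-producing helper subset common in the gut. One of its targets is Foxo1, a transcription factor that keeps resting T cells quiescent. Outside the immune system the cluster is best known from sensory cells of the eye and inner ear and is also expressed in epithelia. Foxo1 and other messenger RNAs were not measured on these arrays.

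The mature sequences are given because the members are close in the seed and differ behind it. They are written 5′ to 3′ from RefSeq (GRCm38.p6), which held all 3, with bases 2 to 8 in capitals.
miR-183-5p: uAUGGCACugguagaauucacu
miR-96-5p: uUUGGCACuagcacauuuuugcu
miR-182-5p: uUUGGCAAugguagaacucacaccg
Positions are counted from 1 at the 5′ end. From miR-183-5p to miR-96-5p the seed changes by A2U alone, and from miR-96-5p to miR-182-5p by C8A alone. From miR-183-5p to miR-182-5p both A2U and C8A apply, so 5 of the 7 seed bases are the same. Aligned from the first base without gaps, miR-183-5p and miR-182-5p were nonetheless the closest pair over their length. They were identical at 18 of 22 bases (81.8%), against 13 of 22 (59.1%) for miR-183-5p and miR-96-5p and 12 of 23 (52.2%) for miR-96-5p and miR-182-5p. The longest stretch that miR-183-5p and miR-182-5p share is 8 bases. Among the mature mouse miRNAs of the same RefSeq table, 1 further sequence shares bases 2 to 7 with a member. It is miR-1271-5p, whose seed UUGGCAC equals that of miR-96-5p. Whether the arrays list miR-1271-5p could not be looked up, so it was not analysed here.

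All 3 miRNAs are cut from hairpins on the minus strand of chromosome 6 (GRCm38.p6), inside the annotated span of the long non-coding RNA gene Mirc35hg (chr6:30158640-30174125). The hairpins are shown with the 5p arm, the member measured, in capitals, to place it in its precursor.
Mir183, chr6:30169668-30169737: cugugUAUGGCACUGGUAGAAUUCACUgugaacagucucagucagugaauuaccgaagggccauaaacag
Mir96, chr6:30169446-30169551: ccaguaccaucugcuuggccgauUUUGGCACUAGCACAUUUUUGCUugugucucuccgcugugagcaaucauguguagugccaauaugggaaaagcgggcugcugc
Mir182, chr6:30165918-30165992: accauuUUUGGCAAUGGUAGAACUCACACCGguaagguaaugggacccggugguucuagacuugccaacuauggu
In the direction of transcription Mir183 comes first, 4388 bases downstream of the annotated start of Mirc35hg. Mir96 follows after 116 bases and Mir182 after a further 3453 bases, and the whole cluster spans 3820 bases. The spacing is therefore uneven, with Mir183 and Mir96 nearly adjoining.

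**Figure D1:**
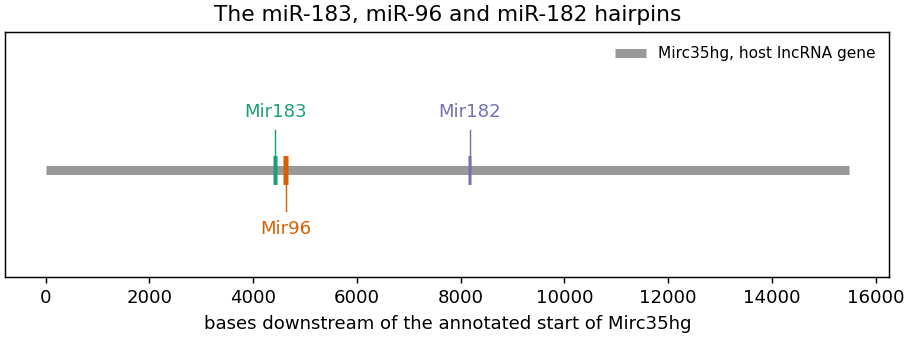
Positions of the 3 hairpins (coloured bars) within the annotated Mirc35hg gene (grey), in bases downstream of its annotated start, read in the direction of transcription. Mir183 and Mir96 lie 116 bases apart, and Mir182 lies 3453 bases beyond Mir96.

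The promoter window of this host gene is printed because the 3 miRNAs lie within 1 annotated transcription unit. STAT5, the factor that carries the interleukin 2 signal to the nucleus, binds the motif TTCNNNGAA, which was searched for here and is marked in capitals. The motif reads the same on both strands.
Mirc35hg promoter, minus strand, chr6:30174076-30174375: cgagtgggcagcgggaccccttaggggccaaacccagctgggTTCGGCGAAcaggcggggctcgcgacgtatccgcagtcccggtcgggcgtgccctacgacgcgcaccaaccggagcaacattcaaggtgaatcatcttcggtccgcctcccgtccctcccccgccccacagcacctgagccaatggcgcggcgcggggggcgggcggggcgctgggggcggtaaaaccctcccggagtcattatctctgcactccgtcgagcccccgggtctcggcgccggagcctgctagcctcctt
The window runs from 250 bases before the annotated start to 50 after it and held 1 match, TTCGGCGAA, beginning 208 bases before the start. Of 32851 RefSeq promoter windows, 2726 (8.3%) held the motif. The match is a description of these letters, and binding was not measured.

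All 3 members had higher intensities in lamina propria CD4+ T cells than in spleen CD4+ T cells on the deposited scale. Of the 353 rows listed on both arrays, 178 were higher in lamina propria, so the direction alone does not set the members apart. For miR-96-5p and miR-182-5p the difference was over 3-fold, and for miR-183-5p it was just under 2-fold. The deposited values are linear intensities in arbitrary units, and no pseudocount was added to the ratios. A probe's brightness also depends on its own binding, so the members' intensities are compared between tissues and not with each other.

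miR-96-5p, which shares bases 2 to 7 with miR-182-5p, had an intensity of 15.04 in lamina propria and 3.87 in spleen. This was the largest ratio of the 3, a log2 ratio of 1.96 or 3.89-fold higher in lamina propria. miR-182-5p, the member known from interleukin 2-stimulated helper T cells as a repressor of Foxo1, had 19.35 in lamina propria and 6.11 in spleen. Its log2 ratio was 1.66, or 3.17-fold higher in lamina propria. miR-183-5p, encoded first in the cluster, had 5.95 in lamina propria and 3.12 in spleen. Its log2 ratio was 0.93, or 1.91-fold higher in lamina propria, which left it below the 2-fold mark used for counting. In bulk RNA of this kind, a larger share of cells that express a miRNA and more of it per cell cannot be told apart.

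**Figure D2:**
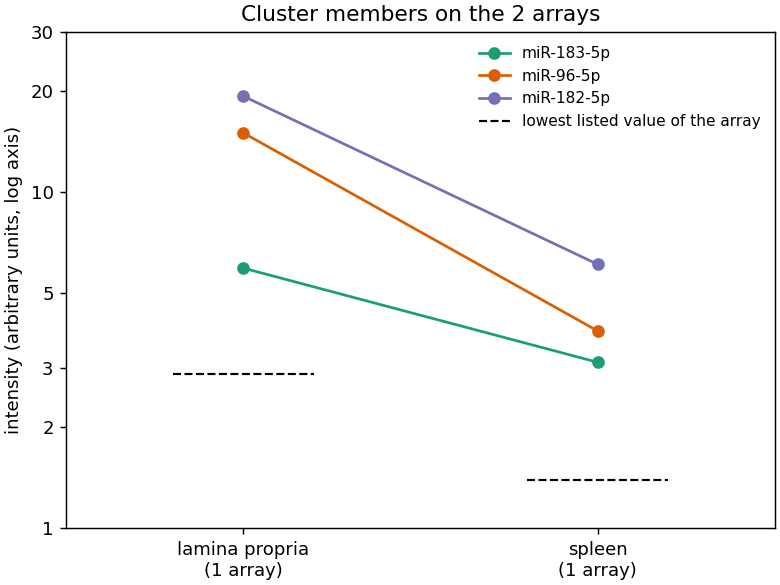
Intensity of each member (arbitrary units, log axis) on the lamina propria array and the spleen array, 1 array per tissue, with lines joining the values of 1 miRNA and dashed lines at the lowest value listed on each array. All 3 lines descend towards spleen, and miR-183-5p (5.95 and 3.12) lies nearest to the dashed lines.

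The members' intensities lay within 6.72 times of the lowest value listed on their array, so the distance from that lower end is given for each. The lowest value listed was 2.88 in lamina propria and 1.39 in spleen, and rows without a listed value are blank. miR-182-5p stood 6.72 times above the lowest value in lamina propria and 4.40 times above it in spleen. miR-96-5p stood 5.22 times above it in lamina propria and 2.78 times in spleen. miR-183-5p stood 2.07 times above it in lamina propria and 2.24 times in spleen, the only member nearer to the lower end in lamina propria. On the deposited scale, with the units of the arrays taken as equal, all 3 spleen values nevertheless exceeded 2.88. On that scale they would have been within the listed range of the lamina propria array. The margin was 1.08 times for miR-183-5p, 1.34 times for miR-96-5p and 2.12 times for miR-182-5p. Setting the medians of the arrays equal moved all log2 ratios up by 0.43. That shift exceeds the margin of miR-183-5p and, slightly, that of miR-96-5p. Signal over local background is not stated in the labels, so how far these low values carry signal was not tested.

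Against all rows, 2 of the 3 members were at least 2-fold higher in lamina propria, where 57 of the 353 rows listed on both arrays (16.1%) were, and 0 of 3 were at least 2-fold lower, where 91 rows (25.8%) were. The median log2 ratio of the members was 1.66, beside 0.01 over the 353 rows, whose quartiles were -1.06 and 0.72. miR-96-5p had the ninth and miR-182-5p the tenth highest ratio, with 8 and 9 rows above them. miR-183-5p ranked 68 of 353, with 19.0% of rows having a higher ratio. All 3 ratios thus lay above the upper quartile, and 2 of them near the top on the deposited scale. The ranks of miR-96-5p and miR-182-5p were 13 and 18 after quantile normalization, and 25 and 23 with 10 added to all values. At thresholds of 1.5-fold and 4-fold, 3 and 0 members were higher, beside 29.7% and 2.27% of all rows.

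The background depends on how bright the rows are. miR-182-5p belonged to the brighter 50% of rows (by mean log2 level), where 27 of 177 rows (15.3%) were at least 2-fold higher in lamina propria and the median log2 ratio was -0.59. Its own ratio ranked ninth there. miR-96-5p and miR-183-5p belonged to the dimmer 50%, where 30 of 176 rows (17%) were at least 2-fold higher and the median was 0.32. Among those 176 rows miR-96-5p had the highest ratio, and miR-183-5p ranked 39. That first place depends on where the rows were divided. miR-96-5p had a mean log2 level of 2.93, near the dividing level of 3.09. All 8 rows with a higher ratio were in the brighter 50%. With spleen values under 2.88 left out, which gives both arrays the same lowest value, 30 of 300 rows (10%) were at least 2-fold higher and the median was -0.18. On the deposited scale the members stayed in that set and ranked 8 (miR-96-5p), 9 (miR-182-5p) and 37 (miR-183-5p). The 53 rows so removed were all higher in lamina propria, so the lower background is built into this setting.

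**Figure D3:**
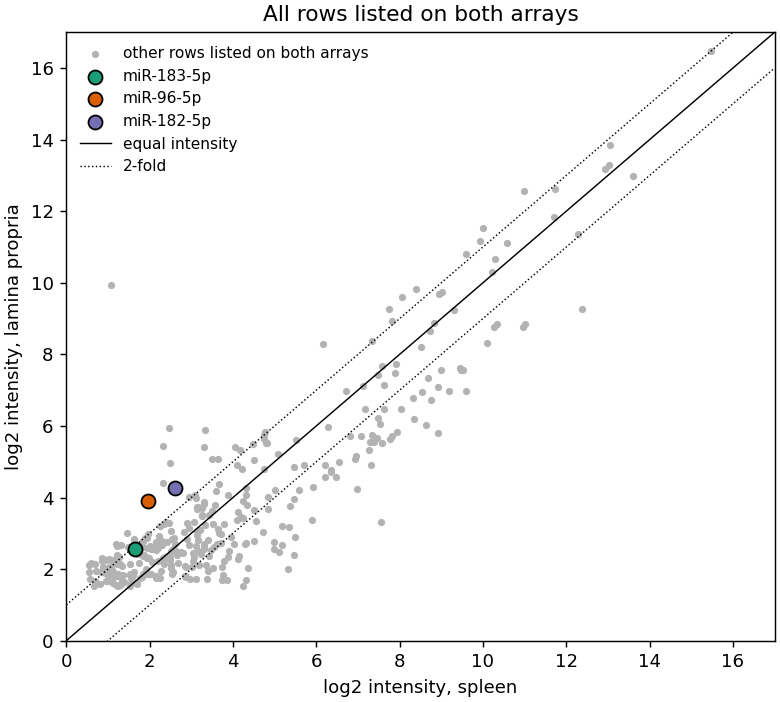
Log2 intensity in lamina propria (vertical) against log2 intensity in spleen (horizontal) for the 353 rows listed on both arrays, with the 3 members in colour, equal intensity as a solid line and 2-fold differences as dotted lines. miR-96-5p and miR-182-5p lie above the upper dotted line and miR-183-5p just below it.

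Within the cluster the ratios were not equal. The log2 ratio of miR-96-5p exceeded that of miR-183-5p by 1.03, a 2.04-fold difference. Their hairpins lie 116 bases apart. The log2 ratio of miR-182-5p exceeded that of miR-183-5p by 0.73 (1.66-fold). These mature sequences are the closest pair. miR-96-5p and miR-182-5p differed by 0.30 (1.23-fold), across 3453 bases and at 52.2% identity. A single scaling factor between the arrays cancels in these gaps, so they do not depend on total signal. An offset in the low values does not cancel, and miR-183-5p lay nearest to the lowest listed values (2.07 times in lamina propria, 2.24 times in spleen). With those lowest values subtracted, the log2 ratios were 2.29 (miR-96-5p), 1.80 (miR-182-5p) and 0.83 (miR-183-5p). The gaps have no replicate error, and whether the members truly differ was not tested. Nor was signal shared between probes of similar miRNAs tested, since the probe sequences were not used here.

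The size of the ratios depended on how the 2 arrays were set against each other. The summed intensity over all listed values was 182481 in lamina propria and 136232 in spleen. These sums depend strongly on the brightest row, with log2 intensities of 16.49 in lamina propria and 15.47 in spleen. Setting the full sums equal was not run, and it would move all log2 ratios down. Equal medians over the 353 rows moved all log2 ratios up by 0.43 and placed all 3 members past 2-fold, at 2.39 for miR-96-5p, 2.09 for miR-182-5p and 1.36 for miR-183-5p. Under that scaling 107 rows (30.3%) were at least 2-fold higher and 70 (19.8%) at least 2-fold lower. The median log2 ratio over all rows was then 0.44, against 0.01 on the deposited scale, and the members' ranks were unchanged. All 3 members were also past 2-fold with the 75th percentiles set equal, where 28.6% of rows were at least 2-fold higher. The same held with the totals set equal without the 10 brightest rows, where 31.7% were. The median over all rows was 0.39 and 0.48 in these settings, and the ranks were again unchanged. After quantile normalization the log2 ratio was 2.03 for miR-96-5p, 1.92 for miR-182-5p and 0.77 for miR-183-5p. A lowess curve fitted to the trend with level left 2.25, 2.11 and 0.66 in the same order. Both settings left miR-96-5p and miR-182-5p past 2-fold, beside backgrounds of 15.9% and 15% at least 2-fold higher. So did 1 added to all values, beside 10.2%, whereas with 10 added 0 members and 5.1% of rows were at least 2-fold higher.

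The direction of miR-183-5p turned under 1 setting. With the lowest listed values of the arrays set equal, a shift of -1.05 in every log2 ratio, its log2 ratio was -0.12. miR-96-5p then had 0.91 and miR-182-5p 0.61, both still higher in lamina propria but below 2-fold. Under that setting 8 rows (2.27%) were at least 2-fold higher and 179 (50.7%) at least 2-fold lower, with a median log2 ratio of -1.04 over all rows, so the members' ranks were as before. Subtracting each array's lowest listed value instead gave 2.29 for miR-96-5p, 1.80 for miR-182-5p and 0.83 for miR-183-5p. miR-96-5p and miR-182-5p were thus higher in lamina propria under every setting run, and miR-183-5p under all but the one with equal lowest values.

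**Figure D4:**
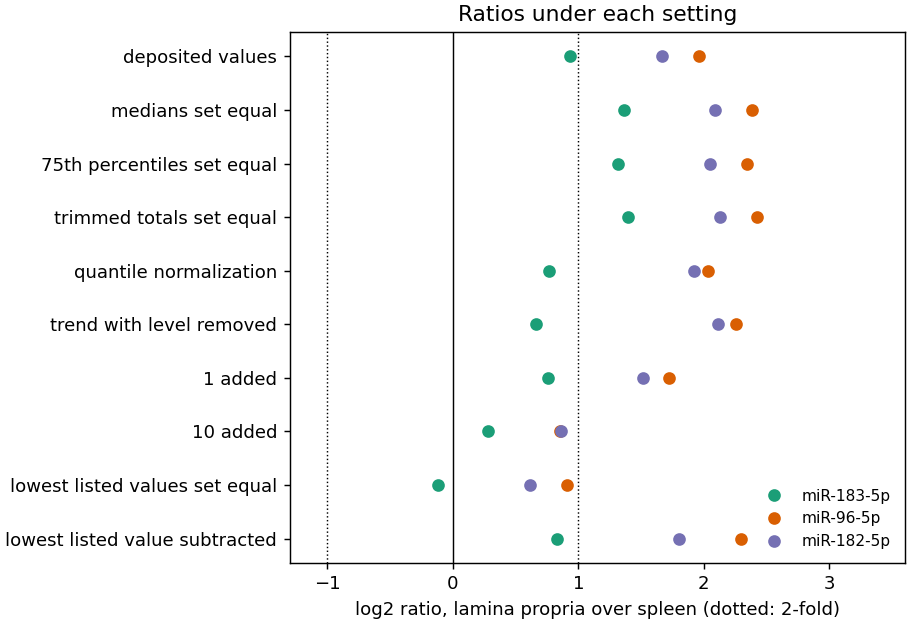
Log2 ratio of lamina propria over spleen for each member (horizontal) under the deposited scale and 9 other settings (vertical), with dotted lines at 2-fold. miR-96-5p and miR-182-5p lie right of 0 throughout, and miR-183-5p crosses to -0.12 with the lowest listed values set equal. The settings that add 1 or 10, or that moved all ratios up, could not have placed a member left of 0.

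Whether the sorted cells match their CD4+ T cell label was not checked. Neither the array table nor the tables used here pair the other accessions with miRNA names. For the same reason the levels of epithelial and other marker miRNAs were not analysed here, and their part in the cluster's higher intensity in lamina propria was not tested.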

How the data were processed

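RNA labelled with Hy5 was hybridised to 1-colour miRNA arrays, per the labels' protocols. The authors deposited linear intensity values, 1 column per array, with blanks where no value is given; background subtraction, detection rule and scaling are not stated in the labels. Of 739 rows, 378 had a value in lamina propria, 516 in spleen and 353 in both. Log2 ratios of lamina propria to spleen were taken from these 353 without scaling, and a row was counted past 2-fold. Alternatives were 5 scalings, 1 or 10 added, and thresholds of 1.5-fold and 4-fold; 2 settings based on the lowest listed values, and the counts among dimmer rows and above a common lowest value, were added after the data were examined. The counting was tested on simulated data. The members and lists were chosen with earlier results of these data known. Genes named were the 3 members. The rule also covered passenger arms, shared seeds, the nearest named rows by intensity and 6 lists of other miRNAs, which could not be applied because accessions other than the members' could not be named. Member names follow miRBase. Calculations used Python 3.11.15, numpy 2.4.6, pandas 2.3.3 and statsmodels 0.14.6 (lowess, fraction 0.5). The number of arrays limits the precision.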

Additional observations from a re-analysis of the deposited data

How the results depend on the processing

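Of the 3 members, 2 were at least 2-fold higher in lamina propria on the deposited scale. That count was 0 with 10 added to all values, 0 with the lowest listed values set equal and 0 at a 4-fold threshold, and 3 at 1.5-fold. The shares of all rows that were higher under these settings were, in the same order, 5.1%, 2.27%, 2.27% and 29.7%. With 10 added the log2 ratios fell to 0.85 for miR-96-5p, 0.87 for miR-182-5p and 0.28 for miR-183-5p, and the gap of miR-96-5p over miR-182-5p turned to -0.013; adding 10 to values this low shrinks ratios by construction. With the lowest listed values set equal they were 0.91, 0.61 and -0.12. Removal of the trend with level widened the gap of miR-182-5p over miR-183-5p to 1.45. The curve takes off an amount that depends on mean log2 level, which was 3.44 for miR-182-5p and 2.11 for miR-183-5p. It moved their log2 ratios from 1.66 to 2.11 and from 0.93 to 0.66. The cause of the trend was not tested. Over all rows, 57 were at least 2-fold higher and 91 lower; the split was 101 and 72 with the 75th percentiles set equal, 112 and 69 with trimmed totals set equal (the 10 brightest rows left out), and 18 and 62 with 10 added. No member was at least 2-fold lower under any setting run for the count. With ratios above 0, settings that moved all ratios up, added values and other thresholds could not have given another count. With the lowest listed values set equal, 50.7% of all rows were at least 2-fold lower. The lists planned by miRNA name were not run. No paired analysis was possible because there is a single array per tissue, which also leaves no replicate to omit. Signal over background is unknown.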
